A study of Homo sapiens with 8 samples.

Results

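The genes described here are KDM3A, EGLN3 and 8 further genes of the hypoxia response, examined in the TC7 clone of Caco-2, a cell line from a human colon carcinoma. They were chosen by symbol, with earlier results of these arrays known, and comprise a histone demethylase gene (KDM3A), 2 oxygen sensor genes (EGLN1 and EGLN3), the transcription factor gene HIF1A and the induced genes VEGFA, ADM, BNIP3, NDRG1, ANKRD37 and CA9. Of these 10 genes, 9 had a probe set paired with their symbol, out of 22458 genes named on the array, and CA9 was not analysed here. Cells in 1 group had received 200 ng of a CRTC1 expression plasmid overnight while subconfluent, and cells in the other group the matching empty vector, pBS, in the same amount and medium, with 4 arrays in each group (n = 4 per group for every value). CRTC1 is a coactivator of the transcription factor CREB. The labels name no change in oxygen, do not say which share of the cells took up plasmid, and do not state whether each array had its own culture, so the spread between arrays may be technical.

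Cells sense oxygen through prolyl hydroxylases, encoded by the EGLN genes, which use oxygen to modify the alpha subunit of the hypoxia-inducible factor (HIF). The modified subunit is bound by the VHL ubiquitin ligase and degraded, and at low oxygen it persists, pairs with ARNT and activates genes that hold a hypoxia response element. Some of those genes feed back on the pathway: EGLN3 and EGLN1 encode the hydroxylases themselves, and KDM3A encodes a JmjC-domain enzyme that removes methyl groups from histone H3 lysine and needs oxygen to do so. HIF1A is regulated mainly through the stability of its protein, which transcript arrays do not measure.

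The labelled cell type was set against its markers. Of 12 epithelial and enterocyte markers with a probe set, 9 lay at or above the median level of all named genes, a log2 expression of 4.16, and the highest, the keratin gene KRT19, averaged 11.2. The sucrase-isomaltase gene SI was the lowest, at 2.90. Of 13 leukocyte, endothelial and fibroblast markers, 2 lay at or above that median. The transfected gene itself lay at 12.52, 11.78, 11.70 and 11.46 on CRTC1 arrays 1 to 4, against 5.48, 5.63, 6.30 and 6.19 on empty vector arrays 1 to 4, and the plasmid sequence contributes to its signal. CRTC1 was the 1 gene of 22458, or 0.00445%, past an adjusted p of 0.05 in limma's moderated test across all genes. The array medians lay between 4.11 and 4.15.

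The windows before the transcription starts show where the recognition letters of both pathways lie. Sequences came from RefSeq (build GRCh38.p14), with 250 bases before each annotated start on the strand of the gene, and 9 windows of 7 measured genes were searched on both strands. No window of VEGFA or NDRG1 was searched. Capitals mark the letters ACGTG or GCGTG, the core of the hypoxia response element, and TGACG, the half-site of the cAMP response element that CREB binds. KDM3A and EGLN3 are shown because they had the largest differences among the 9 genes, EGLN1 as the paralogue of EGLN3, and BNIP3 and ANKRD37 because their windows held the most hypoxia cores. The KDM3A window lies at chr2:86441121-86441370 on the plus strand, EGLN3 at chr14:33951075-33951324 on the minus strand, EGLN1 at chr1:231422288-231422537 on the minus strand, BNIP3 at chr10:131981924-131982173 on the minus strand and ANKRD37 at chr4:185396591-185396840 on the plus strand.
KDM3A: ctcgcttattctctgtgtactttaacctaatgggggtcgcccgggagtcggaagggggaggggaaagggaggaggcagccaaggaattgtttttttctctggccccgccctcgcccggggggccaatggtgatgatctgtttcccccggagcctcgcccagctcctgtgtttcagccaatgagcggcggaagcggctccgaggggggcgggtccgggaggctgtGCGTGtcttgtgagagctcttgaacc
EGLN3: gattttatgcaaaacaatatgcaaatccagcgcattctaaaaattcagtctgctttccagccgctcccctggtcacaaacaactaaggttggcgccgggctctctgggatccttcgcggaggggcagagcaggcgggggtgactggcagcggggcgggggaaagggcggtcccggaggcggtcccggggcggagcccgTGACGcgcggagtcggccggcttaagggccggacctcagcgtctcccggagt
EGLN1: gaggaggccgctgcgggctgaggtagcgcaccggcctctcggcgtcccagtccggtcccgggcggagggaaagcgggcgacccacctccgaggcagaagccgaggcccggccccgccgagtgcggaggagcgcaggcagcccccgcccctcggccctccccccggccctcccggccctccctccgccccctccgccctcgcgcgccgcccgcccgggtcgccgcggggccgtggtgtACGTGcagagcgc
BNIP3: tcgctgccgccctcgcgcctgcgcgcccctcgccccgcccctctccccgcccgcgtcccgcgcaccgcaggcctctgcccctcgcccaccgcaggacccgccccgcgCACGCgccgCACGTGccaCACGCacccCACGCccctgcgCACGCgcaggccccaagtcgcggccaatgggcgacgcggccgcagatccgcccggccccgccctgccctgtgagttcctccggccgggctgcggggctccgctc
ANKRD37: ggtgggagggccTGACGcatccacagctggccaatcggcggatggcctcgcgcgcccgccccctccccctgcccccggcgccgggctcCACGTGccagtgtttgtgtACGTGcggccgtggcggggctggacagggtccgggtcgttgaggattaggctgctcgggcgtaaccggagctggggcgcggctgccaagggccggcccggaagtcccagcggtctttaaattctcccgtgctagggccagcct

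The KDM3A window held 1 GCGTG, 26 to 22 bases before the start, and the window of the second annotated KDM3A start held the same letters. The EGLN3 window held neither hypoxia core and 1 TGACG, 52 to 48 bases before the start. EGLN1 held 1 ACGTG, 13 to 9 bases before the start. BNIP3 held 2 ACGTG and 4 GCGTG, and ANKRD37 held 3 ACGTG and 1 TGACG. In both of these windows 1 pair of ACGTG matches overlaps, because ACGTG reads on both strands of the letters CACGTG. Of the windows not shown, ADM and the first HIF1A start each held 1 GCGTG, with 1 TGACG as well before that HIF1A start, and the second HIF1A start held none. Among all 35116 windows of this length, 43.2% held ACGTG or GCGTG, 21.2% held TGACG and 1.65% held the full cAMP response element TGACGTCA, which 0 of the 9 windows held. A match is a description of the letters and not a bound site. Letters farther upstream or inside the genes were not searched, so a window without a core does not mean a gene without one.

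KDM3A (Entrez Gene 55818) was higher on every CRTC1 array than on any empty vector array. Its log2 expression was 6.97, 6.80, 6.96 and 6.96 on CRTC1 arrays 1 to 4, against 6.53, 6.46, 6.57 and 6.54 on empty vector arrays 1 to 4. CRTC1 array 2 lay below the other 3 CRTC1 arrays, and a gap remained between it and the highest empty vector array. The group means were 6.93 ± 0.0821 in CRTC1 cells and 6.53 ± 0.0439 in empty vector cells (SD, n = 4). This is a log2 difference of 0.40 (standard error 0.08), or a 1.32-fold level with a 95% interval of 1.17 to 1.49. KDM3A was among the genes chosen because of this difference, so the values are a description, and the adjusted p across all genes in limma was 0.837. Arrays with equal replicate numbers, which were not taken as pairs, differed by 0.45, 0.34, 0.39 and 0.42 on the log2 scale. Leaving out any 1 array kept the log2 difference between 0.38 and 0.44.

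EGLN3 (Entrez Gene 112399), which encodes a prolyl hydroxylase that is itself strongly inducible by HIF, had the largest difference of the 9 genes and the widest spread with CRTC1. It lay at 4.30, 3.49, 2.97 and 3.55 on CRTC1 arrays 1 to 4, against 3.07, 2.98, 3.22 and 2.84 on empty vector arrays 1 to 4. CRTC1 array 1 was the highest and 3 CRTC1 arrays lay above all empty vector arrays, whereas CRTC1 array 3 lay among them, so the groups overlapped. Differences, CRTC1 minus empty vector, between arrays with equal replicate numbers were 1.23, 0.51, -0.25 and 0.71 on the log2 scale. The means were 3.58 ± 0.549 in CRTC1 cells and 3.03 ± 0.157 in empty vector cells (SD, n = 4), both under the median level of all genes. The log2 difference of 0.55 had a standard error of 0.24, a 1.46-fold level with a 95% interval of 1.01 to 2.12 (limma adjusted p = 0.837). Without CRTC1 array 1 the log2 difference was 0.31, and without CRTC1 array 3 it was 0.75. CRTC1 array 1 was also the array with the highest CRTC1 signal, 12.52, and a relation between that signal and the EGLN3 level was not tested.

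EGLN1 (Entrez Gene 54583), which encodes the main HIF prolyl hydroxylase at normal oxygen, lay at 7.03, 6.98, 6.94 and 6.87 on CRTC1 arrays 1 to 4, against 7.19, 7.07, 6.91 and 6.81 on empty vector arrays 1 to 4. The CRTC1 arrays all fell within the range of the empty vector arrays. Its log2 difference of -0.04 had a standard error of 0.10, and the 95% interval of the fold ran from 0.832 to 1.13. It was 0.02 without empty vector array 1.

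HIF1A (Entrez Gene 3091) varied least between groups together with EGLN1. Its values were 8.52, 8.56, 8.44 and 8.43 on CRTC1 arrays 1 to 4, against 8.50, 8.48, 8.34 and 8.43 on empty vector arrays 1 to 4. With a log2 difference of 0.05 and a standard error of 0.08, the fold of 1.03 had a 95% interval of 0.917 to 1.17. That interval rests on the spread between arrays, which may be technical.

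**Figure D1:**
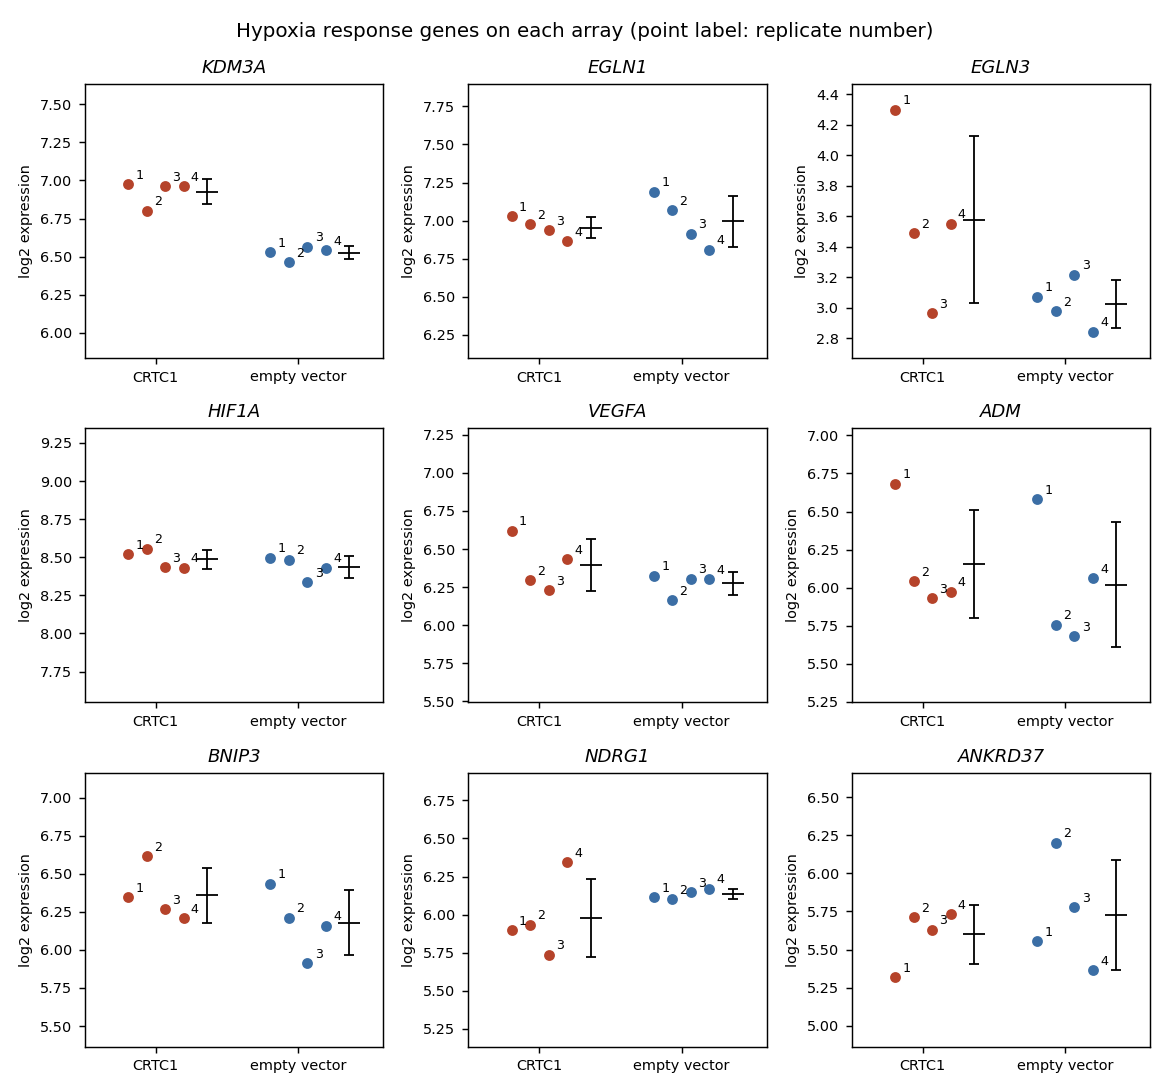
Log2 expression of the 9 measured hypoxia response genes on each array, with CRTC1 arrays on the left and empty vector arrays on the right of every panel; each point is 1 array labelled with its replicate number, the bar beside it is the mean ± SD of 4 arrays, and all panels span the same height. The 4 KDM3A points with CRTC1, from 6.80 to 6.97, stand clear of the empty vector points, from 6.46 to 6.57, and in the other 8 panels the groups overlap.

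The secreted factors gave smaller differences. VEGFA (Entrez Gene 7422), the growth factor that drives vessel sprouting, lay at 6.62, 6.30, 6.23 and 6.43 on CRTC1 arrays 1 to 4, against 6.32, 6.17, 6.30 and 6.30 on empty vector arrays 1 to 4. CRTC1 arrays 1 and 4 lay above every empty vector array and the other CRTC1 arrays lay among them. The log2 difference of 0.12 (standard error 0.10) was 0.05 without CRTC1 array 1.

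ADM (Entrez Gene 133) encodes adrenomedullin, a vasodilator peptide made by many epithelia. It lay at 6.68, 6.04, 5.93 and 5.97 on CRTC1 arrays 1 to 4, against 6.58, 5.76, 5.68 and 6.06 on empty vector arrays 1 to 4. Array 1 was the highest of its group in both groups, and the gap between array 1 and the others exceeded the difference between the group means. Its log2 difference of 0.14, with a standard error of 0.23, turned to -0.04 without CRTC1 array 1 and was 0.32 without empty vector array 1.

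BNIP3 (Entrez Gene 664), whose product sits on mitochondria and marks them for mitophagy, lay at 6.34, 6.61, 6.27 and 6.21 on CRTC1 arrays 1 to 4. On empty vector arrays 1 to 4 it lay at 6.43, 6.21, 5.91 and 6.16. The groups overlapped, with CRTC1 array 2 the highest and empty vector array 3 the lowest of all 8. The log2 difference was 0.18 with a standard error of 0.13, and was 0.09 without empty vector array 3 or without CRTC1 array 2.

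NDRG1 (Entrez Gene 10397), a stress-responsive gene linked to differentiation of epithelia, had the largest difference on the lower side. It lay at 5.90, 5.93, 5.74 and 6.35 on CRTC1 arrays 1 to 4, against 6.11, 6.10, 6.15 and 6.17 on empty vector arrays 1 to 4. The empty vector arrays lay close together, with an SD of 0.0325, while 3 CRTC1 arrays lay below all of them and CRTC1 array 4 above all of them. The log2 difference was -0.16 with a standard error of 0.12, and was -0.28 without CRTC1 array 4 and -0.08 without CRTC1 array 3.

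ANKRD37 (Entrez Gene 353322), an ankyrin repeat gene known as a direct HIF target, lay at 5.32, 5.71, 5.63 and 5.73 on CRTC1 arrays 1 to 4. On empty vector arrays 1 to 4 it lay at 5.56, 6.20, 5.78 and 5.36. The range with empty vector enclosed all but CRTC1 array 1, the array on which EGLN3, VEGFA and ADM were highest. The log2 difference was -0.13 with a standard error of 0.18, and was 0.03 without empty vector array 2 and -0.03 without CRTC1 array 1.

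**Figure D2:**
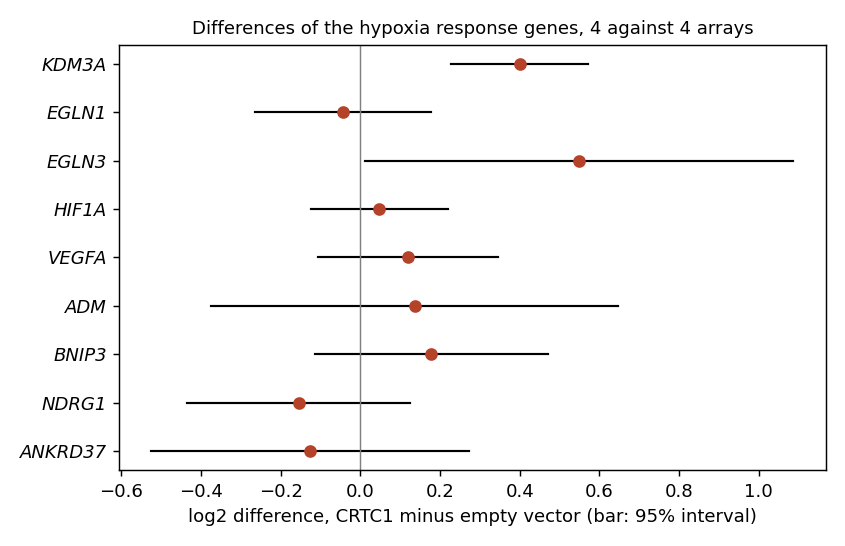
Log2 difference, CRTC1 minus empty vector, of the 9 genes, with points for limma's estimate over 4 and 4 arrays and bars for its 95% interval before any adjustment over genes. The interval of KDM3A lies clear of 0, that of EGLN3 begins just above 0, and the other 7 intervals cross 0.

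Across the 9 genes, 6 were higher and 3 lower with CRTC1, a share of 66.7% higher where 48.6% of all named genes had a difference above 0. The median log2 difference was 0.12, against -0.01 over all named genes, and ran from 0.02 without empty vector array 3 to 0.18 without CRTC1 array 3. Apart from KDM3A and EGLN3, the 7 differences lay between -0.16 and 0.18. In limma's fit 0 of the 9 passed the adjusted threshold, with adjusted p-values from 0.837 to 0.958. At an unadjusted p under 0.05 were 2 genes, KDM3A and EGLN3, both higher, beside 5.94% of all named genes (3.2% higher and 2.73% lower). The groups did not overlap in 1 gene, KDM3A, beside 3.74% of all named genes (1.68% higher and 2.06% lower). These counts are descriptions, since the genes were listed with those differences known.

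**Figure D3:**
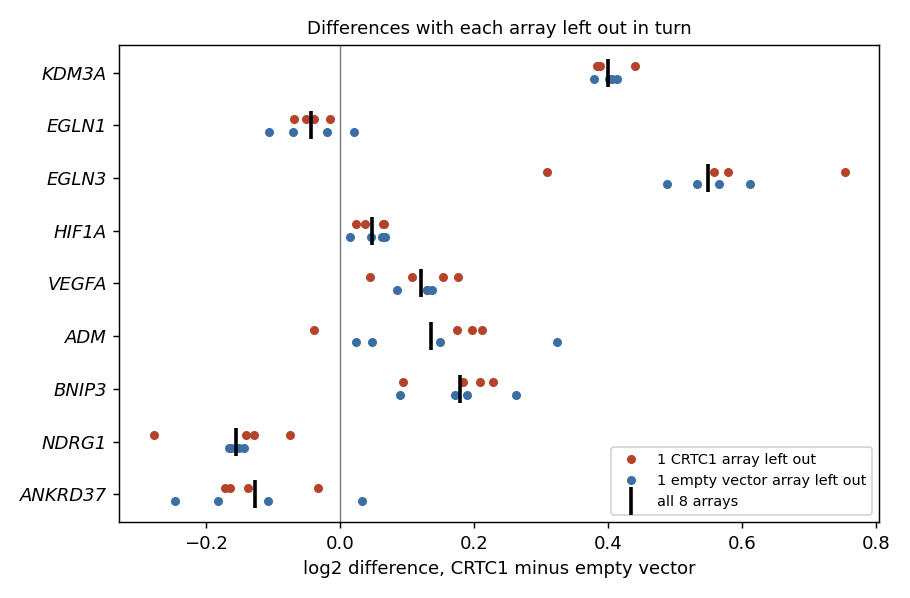
Log2 difference, CRTC1 minus empty vector, of each gene with all 8 arrays (black bar), with 1 CRTC1 array left out (red points) and with 1 empty vector array left out (blue points). KDM3A stays between 0.38 and 0.44, EGLN3 spreads from 0.31 to 0.75, and the points of EGLN1, ADM and ANKRD37 lie on both sides of 0.

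KDM3A passed the unadjusted p under 0.05 with any 1 array left out. It was chosen for its difference on these arrays, so this describes only the weight of single arrays. EGLN3 passed it without CRTC1 array 3 and without empty vector array 3, and did not pass it without any of the other 6 arrays in turn. NDRG1 passed it as lower without CRTC1 array 4, where its groups no longer overlapped. The mean of the 9 genes was 6.41, 6.27, 6.12 and 6.28 on CRTC1 arrays 1 to 4, against 6.26, 6.16, 6.10 and 6.08 on empty vector arrays 1 to 4. The groups overlapped in that mean, and CRTC1 array 1 was the highest.

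Among the other components of oxygen sensing and HIF, 14 were measured and 0 passed the adjusted threshold in limma, with 1 higher and 0 lower at an unadjusted p under 0.05, beside 5.94% of all named genes. Of these, 6 were higher and 8 lower, and the median log2 difference was -0.02. The largest was ARNT2, which encodes a partner subunit of HIF found mainly in neural tissue. It lay at 3.50, 3.82, 3.16 and 3.74 on CRTC1 arrays 1 to 4, against 3.06, 3.00, 2.80 and 2.84 on empty vector arrays 1 to 4. The groups did not overlap, as in 3.74% of all named genes, at a level below the median of all genes, and the log2 difference was 0.63 with a standard error of 0.15 (limma adjusted p = 0.837). The ubiquitous partner gene ARNT differed by 0.03, the VHL ubiquitin ligase scaffold gene CUL2 by 0.14, its ring finger gene RBX1 by -0.13 and HIF3A by -0.34 on the log2 scale. VHL differed by -0.01, EPAS1, which encodes the HIF2 alpha subunit, by 0.08, and HIF1AN, the asparagine hydroxylase gene, by -0.04.

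Of the other HIF target genes outside glycolysis, 39 were measured, 24 of them higher and 15 lower, and the median log2 difference was 0.03. None passed the adjusted threshold in limma, and 1 of the 39 was higher and 0 lower at an unadjusted p under 0.05, a smaller share than the 5.94% of all named genes. That gene was DDIT4, an mTORC1 inhibitor induced by low oxygen and by other stresses, which averaged 5.98 ± 0.240 in CRTC1 cells and 5.19 ± 0.316 in empty vector cells (SD, n = 4). The groups did not overlap in DDIT4, as in 3.74% of all named genes (limma adjusted p = 0.837). STC2, a secreted glycoprotein gene, differed by 0.21, the kinase gene RIOK3 by 0.19 and the ectonucleotidase gene NT5E by -0.16. The 39 differences ran from -0.22 for ANGPTL4, a secreted inhibitor of lipoprotein lipase, to 0.79 for DDIT4. The median turned to -0.01 without CRTC1 array 1.

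Glycolysis genes that HIF induces were measured for 18 members, 8 of them higher and 10 lower, and the median log2 difference was -0.02. None passed the adjusted threshold in limma, and 1 of the 18 was higher and 0 lower at an unadjusted p under 0.05, close to the 5.94% of all named genes. The enolase genes differed in opposite directions: ENO2, the neuronal form, averaged 4.63 ± 0.268 in CRTC1 cells and 4.26 ± 0.160 in empty vector cells, and ENO1, the widespread form, 8.65 ± 0.138 in CRTC1 cells and 8.85 ± 0.0758 in empty vector cells (SD, n = 4). ENO1 did not overlap between groups, as in 3.74% of all named genes, and ENO2 did, and both had a limma adjusted p above 0.05 (0.837 for ENO2 and 0.838 for ENO1). The lactate dehydrogenase gene LDHA differed by -0.13, the hexokinase gene HK2 by 0.12, the glucose transporter gene SLC2A1 by -0.07, the kinase gene PGK1 by -0.05 and PDK1, which restrains pyruvate oxidation, by 0.04.

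**Figure D4:**
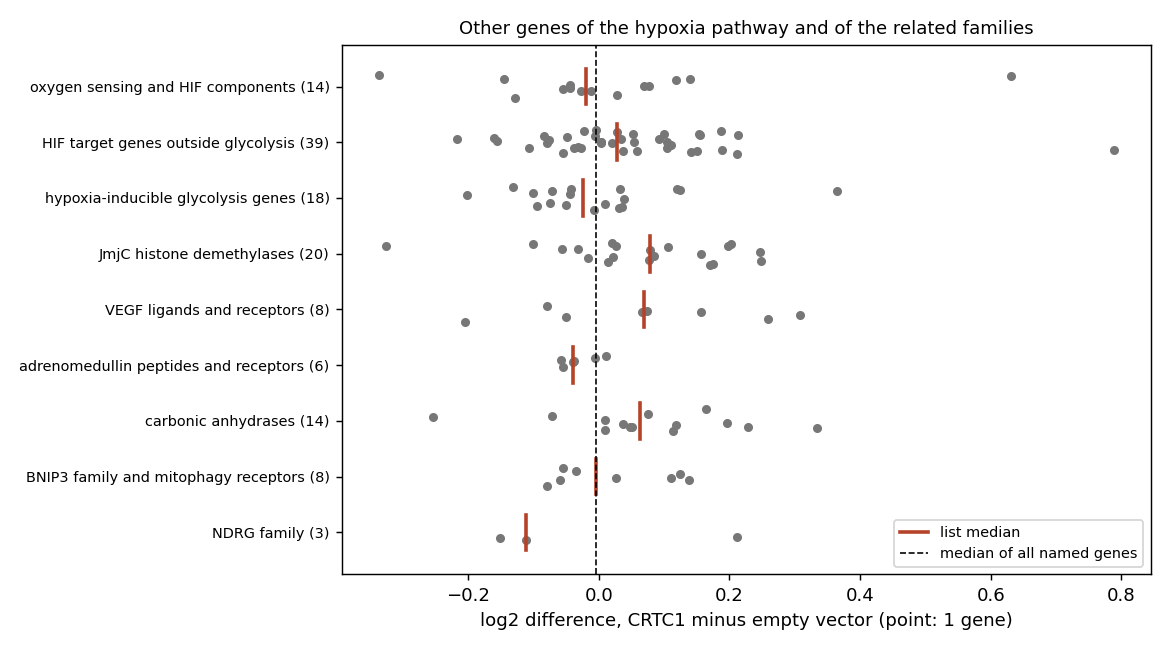
Log2 difference, CRTC1 minus empty vector, of the measured genes of 9 lists with the 9 genes above set aside; each point is 1 gene, red bars are list medians, the dashed line is the median of all named genes at -0.01 and the number of genes stands beside each list name. The medians lie between -0.11 and 0.08, with DDIT4 at 0.79 and ARNT2 at 0.63 the points farthest to the right.

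KDM3A was set beside the other genes of JmjC-domain proteins, a family of oxygen-dependent histone demethylases and related proteins. Of 20 others, 15 were higher (75%, beside 48.6% of all named genes) and 5 lower, and their median log2 difference was 0.08. None passed the adjusted threshold in limma, and 1 was higher and 1 lower at an unadjusted p under 0.05, where 3.2% of all named genes were higher and 2.73% lower. The lower gene was KDM4D, a testis-enriched H3 lysine demethylase gene, at 4.03, 4.11, 4.15 and 4.07 on CRTC1 arrays 1 to 4, against 4.35, 4.39, 4.54 and 4.38 on empty vector arrays 1 to 4. Its groups did not overlap, as in 3.74% of all named genes, and the log2 difference was -0.33 with a standard error of 0.08 (limma adjusted p = 0.837). The higher gene was JMJD1C, a close relative of KDM3A, which averaged 7.56 ± 0.192 in CRTC1 cells and 7.32 ± 0.0759 in empty vector cells (SD, n = 4), a log2 difference of 0.25. KDM3B, the other close relative, differed by 0.08 with a standard error of 0.07. KDM6B, which encodes a demethylase of the repressive H3 mark set by Polycomb, differed by 0.25. KDM5A, an eraser of a promoter mark, differed by 0.20 with no overlap between groups, at an unadjusted limma p of 0.0737. The HIF-inducible relatives KDM4B and KDM4C differed by -0.03 and 0.02. The median of the 20 was 0.03 without CRTC1 array 1, the array on which their mean was highest, at 6.04, against 5.88 to 5.96 on the other CRTC1 arrays and 5.86 to 5.90 on the empty vector arrays.

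**Figure D5:**
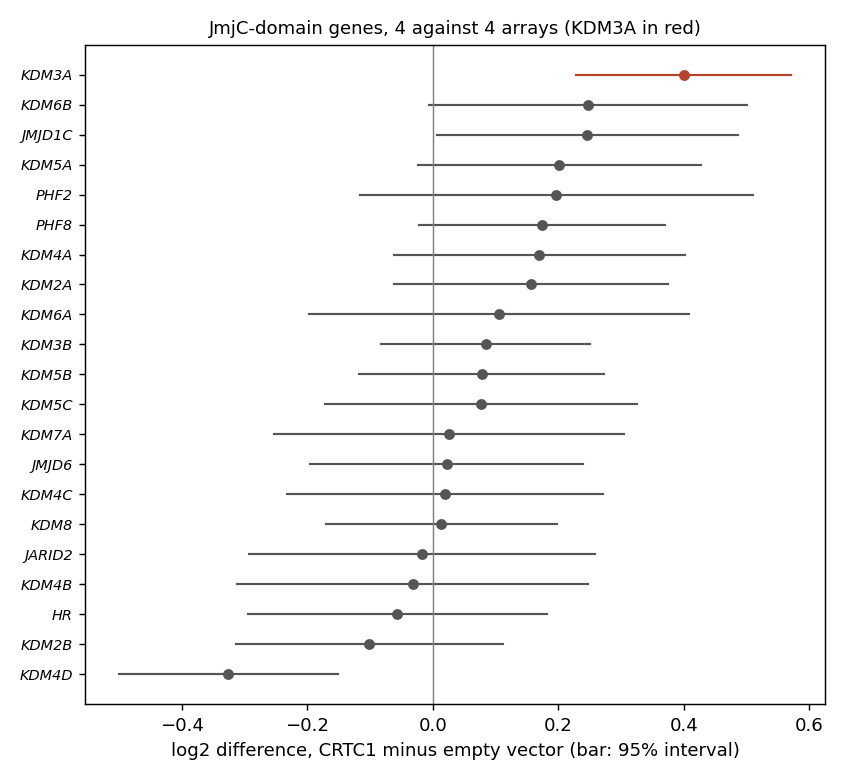
Log2 difference, CRTC1 minus empty vector, of KDM3A (red) and 20 other JmjC-domain genes (grey), sorted by size, with limma's 95% interval before any adjustment over genes. KDM3A at 0.40 is at the top, KDM4D at -0.33 at the bottom, and most intervals cross 0.

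The families of the other listed genes were examined in the same way. In the VEGF ligands and receptors 8 others were measured, 5 higher and 3 lower, and 2 receptor genes were higher at an unadjusted p under 0.05, beside 3.2% of all named genes that were higher at that p. FLT1 lay at 2.72, 2.69, 2.80 and 2.93 on CRTC1 arrays 1 to 4, against 2.33, 2.46, 2.55 and 2.57 on empty vector arrays 1 to 4. The FLT1 groups did not overlap, as in 3.74% of all named genes. FLT4 averaged 3.51 ± 0.105 in CRTC1 cells and 3.25 ± 0.135 in empty vector cells (SD, n = 4). Both are receptors of endothelial cells, both lay below the median level, and both had a limma adjusted p of 0.837. Of 13 measured leukocyte, endothelial and fibroblast markers, 7 were higher and 6 lower, with PDGFRB at 0.42, CLDN5 at 0.33, CDH5 at 0.20, PECAM1 at -0.33 and VWF at -0.01 on the log2 scale. Their mean lay between 3.14 and 3.26 on CRTC1 arrays and between 3.15 and 3.27 on empty vector arrays. Of the 13 markers, 11 lay below the median level of all named genes. The ligand genes VEGFC and PGF differed by 0.16 and -0.20. The family median was 0.07, and turned to -0.08 without CRTC1 array 1.

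The adrenomedullin receptor genes were close to 0. CALCRL, the receptor, differed by -0.04 and its partner genes RAMP1, RAMP2 and RAMP3 by 0.01, -0.04 and -0.01, and the related peptide gene ADM2 by -0.06 on the log2 scale. Of the 6 genes measured in this family, 5 lay below the median level of all genes, where a difference near 0 says little. CALCRL averaged 2.03 over all arrays and RAMP2 6.88. Of 14 other carbonic anhydrase genes 12 were higher (85.7%, beside 48.6% of all named genes) and 2 lower, and 2 were higher at an unadjusted p under 0.05, beside 3.2% of all named genes. Their median log2 difference was 0.06, and was 0.02 without empty vector array 1 and 0.12 without empty vector array 4. Of the 14, 8 lay below the median level of all named genes. The groups overlapped in the mean of the 14, at 3.58 to 3.76 on CRTC1 arrays and 3.51 to 3.69 on empty vector arrays. The 2 genes higher at that p were CA3 and the mitochondrial CA5B. CA3 averaged 3.50 ± 0.200 in CRTC1 cells and 3.17 ± 0.122 in empty vector cells. CA5B averaged 4.61 ± 0.0927 in CRTC1 cells and 4.38 ± 0.148 in empty vector cells (SD, n = 4, limma adjusted p = 0.837 each). CA12, the other carbonic anhydrase that HIF induces at the cell surface, differed by 0.04. Among the mitophagy receptors and BNIP3 relatives, 8 were measured with 4 higher and 4 lower, and BNIP3L, the nearest relative of BNIP3, differed by 0.11 with a standard error of 0.08. In the NDRG family NDRG3 lay at 8.11, 8.18, 8.18 and 8.25 on CRTC1 arrays 1 to 4, against 8.34, 8.33, 8.34 and 8.31 on empty vector arrays 1 to 4. The NDRG3 groups did not overlap, as in 3.74% of all named genes, and its log2 difference was -0.15 with a standard error of 0.07 (limma adjusted p = 0.838). NDRG2 differed by -0.11 and NDRG4 by 0.21. None of the genes in these 5 families passed the adjusted threshold in limma, and in the adrenomedullin, BNIP3 and NDRG families 0 others were at an unadjusted p under 0.05.

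The genes whose pattern over the 8 arrays was most like that of KDM3A were CNNM4, a magnesium transport gene, the ubiquitin ligase gene HACE1, the homeobox gene PRRX1 and the orphan receptor gene GPR27. Likeness was the root mean square difference between profiles centred on their own means, over 11228 genes at or above the median level, and it was 0.0915, 0.0921, 0.0925 and 0.0960 on the log2 scale for these genes. Their own log2 differences were 0.26, 0.26, 0.31 and 0.29, each without overlap between groups. For EGLN3 the nearest were FAM219A, LOC100288069, the glucose bisphosphate synthase gene PGM2L1 and the olfactory receptor gene OR2T10, at 0.203, 0.214, 0.217 and 0.221. These were all highest on CRTC1 array 1, as EGLN3 was, at 6.38, 6.88, 5.09 and 5.45. A gene found in this way shares its pattern by selection.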

How the data were processed

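Total RNA from 4 CRTC1 and 4 empty vector samples was hybridised to Affymetrix arrays after whole-transcript sense target labelling, per the labels. The authors deposited 1 log2 value for each probe set on each array; the scale was read from the range. The submitters' processing notes name Partek; sources used here do not tell how background was corrected or arrays normalized. The medians of all 8 columns lay between 4.11 and 4.15, so a shift common to most genes would not be seen. The distributions were not identical. Quantile normalization moved the log2 difference of HIF1A from 0.05 to 0.07, and the median of the epithelial and enterocyte markers from -0.05 to -0.02. The number of arrays limits precision.

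Of 23786 probe sets, 22458 had 1 gene symbol, updated through Entrez identifiers with RefSeq (GRCh38.p14, all 22458 matched), none had several and 1328 were unnamed here. limma 3.58.1 in R 4.3.3 compared the groups across all named genes, with Benjamini-Hochberg adjustment and a threshold of 0.05. The fit was also run on simulated data with arrays drawn independently. That run cannot tell how the fit behaves where arrays of equal number share deviations. The genes described and the 11 context lists (171 genes, 160 measured) were chosen with earlier results of these data known. Named genes were those listed, CRTC1, up to 4 of the smallest p per list and the 4 nearest in pattern to KDM3A and to EGLN3; other list members named for their role were chosen after their values were seen. The labels do not state what arrays with equal replicate numbers share, so the numbers were not taken as pairs in the main fit. Deviations from group means of such arrays correlated at 0.251, 0.0385, 0.0639 and 0.117. Each CRTC1 array matched best with the empty vector array of its own number. With a replicate block, named genes at an unadjusted p under 0.05 in limma numbered 1677, against 1333 without it. The standard error of ADM was then 0.09 instead of 0.23. Alternatives covered a replicate block, normalization, centring, a filter on dim genes, variance models, array weights, all probe sets and arrays left out.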

Additional observations from a re-analysis of the deposited data

Results flagged for a closer look

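Dixon's test, which chance passes in about 1 in 20 groups, looked in each group of 4 arrays for 1 array apart from the rest and found it in 8 of 122 groups. For KDM3A this was CRTC1 replicate 2 at 6.80, while the remaining CRTC1 arrays gave 6.96 to 6.97. For VEGFA it was empty vector replicate 2 at 6.17, with the rest at 6.30 to 6.32. For ADM it was CRTC1 replicate 1 at 6.68, with the rest at 5.93 to 6.04. KDM5A read 7.33 on empty vector replicate 1 (the rest 7.59 to 7.64), and CNNM4 read 6.98 on CRTC1 replicate 1 (the rest 6.78 to 6.81). Among the cell type markers, KRT19 read 11.37 on empty vector replicate 2 (the rest 11.21 to 11.22), PDGFRB 2.85 on CRTC1 replicate 2 (the rest 2.97 to 2.99) and PECAM1 3.11 on empty vector replicate 2 (the rest 2.65 to 2.69).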

How the results depend on the processing

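Of 170 values of the 9 genes under 19 alternatives, 167 kept their direction and their side of the adjusted threshold, which none had passed. The 3 that changed direction were ADM without CRTC1 replicate 1, EGLN1 without empty vector replicate 1 and ANKRD37 without empty vector replicate 2. With arrays left out ADM ran from -0.0390 to 0.324, EGLN1 from -0.105 to 0.0210 and ANKRD37 from -0.292 to 0.0331. The genes past the adjusted threshold numbered 2 with a variance trend and robust moderation and 1 with each array left out. Named genes at an unadjusted p under 0.05 numbered 1677 with the replicate block, 829 with dim genes filtered out, which tests fewer genes, and 1175 to 1485 with 1 array left out, or 1062 to 1347 with both arrays of a number. Of the 9 genes, 1 (KDM3A) was at an unadjusted p under 0.05 with the replicate block, quantile normalization or array weights, and with dim genes filtered out, which removes EGLN3, and 1 to 2 with arrays left out. KDM3A was at that p in 19 of 19 alternatives, with adjusted p-values from 0.325 to 0.970, and EGLN3 in 6 of 18. Both genes were listed with their differences on these arrays known, so these counts are descriptions. Genes of the 9 with no overlap numbered 1 to 2 with arrays left out, where EGLN3 joined without CRTC1 replicate 3 and NDRG1 without CRTC1 replicate 4. The median of the 9 ran from 0.02 to 0.18. Every CRTC1 array correlated best with the empty vector array of its own number, a hint from the data and not from the labels. The causes were not tested. Of 209 list medians, 198 moved by less than the spread between arrays.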
